A study of Mus musculus with 6 samples.

Results

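The genes described are those of the cytosolic ribosomal proteins, with the paralogs that skeletal muscle and other tissues add to them. They were chosen by symbol alone, as the genes named Rpl or Rps followed by a number, together with Rplp0, Rplp1, Rplp2, Rpsa and Rpl36al, and without pseudogenes. There were 84 of them among the 41709 genes measured, and 82 had a mean of at least 1 TPM (a transcript's length-corrected share of the library) and were tested, 50 of the large and 32 of the small subunit. Rpl10l was listed at 0 in every library and Rpl39l was between 0.122 and 0.690 TPM, so neither was tested. The symbols Rps4l, Rps12l1 and Rpl26l1 were not among the genes listed.

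RNA-seq had been done on 6 tibialis anterior muscles of male C57BL/6J mice, collected 14 days after the muscle had been injected with hyaluronidase and electroporated with plasmid DNA. In 3 muscles (LrpprcWT) the plasmid carried Flag-tagged wild-type mouse Lrpprc, an RNA-binding protein of mitochondria and the nucleus. In the other 3 (LrpprcP27A) it carried the same protein with a proline replaced by alanine, which cannot be dihydroxylated at that site. This variant stands in for the decline of the modification in wasting muscle. The 2 groups were contralateral muscles of the same mice. The replicate number was taken to mark the pair, which the labels do not state. All of the muscles kept their own Lrpprc gene, the plasmid used the CMV promoter and was not restricted to a cell type, and no muscle without Lrpprc plasmid is compared here. The study used young and old mice, and the sources do not say which gave these libraries. The mature fast fibre list (12 genes such as Acta1 and Myh4) summed to between 133022 and 158966 TPM per library, so markers of the labelled tissue were present.

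The ribosome is the particle that translates mRNA into protein. Each of its subunits is built from ribosomal RNA and many proteins, which cells make in matched amounts. The mRNAs of these proteins typically begin with a C followed by a run of pyrimidines, the 5′ TOP motif, through which mTORC1 and Larp1 set their translation together. Some ribosomal proteins have a paralog that takes their place in particular tissues. The best known is Rpl3l, which replaces Rpl3 near the catalytic centre of the large subunit in skeletal muscle and heart. Rpl3 returns when muscle grows or regenerates.

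Promoters and start sites were matched by symbol for 64 of the 84 genes (RefSeq, build GRCm38.p6), and Rpl3 and Rplp1 were among those not matched. The first 5 start sites below are examples of the tract that a minority of these genes had at an annotated start, and those of Rpl3l and Rps27l are examples without it, like most of the matched genes. Each line runs from 5 bases before the annotated start to 15 after it, 5′ to 3′, with the run of pyrimidines that begins at the start in capitals, and where several starts are annotated it shows the one farthest upstream. In the order printed they lie at chr2:39005117-39005136 (minus), chr4:86857353-86857372 (minus), chr17:27635230-27635249 (minus), chr7:4792960-4792979 (plus), chr3:90213634-90213653 (minus), chr17:24727821-24727840 (plus) and chr9:66946081-66946100 (plus strand).
Rpl35: ctttcCTCTTTCTCTCgaac
Rps6: cgggcCTCTTTTTCgtgacg
Rps10: cgcccCTTCCTTTCCagcct
Rpl28: tgtctCTCTTTCCgtctccg
Rps27: tcgctCCTTTCCggcggtga
Rpl3l: gctctgtcatttgacctctg
Rps27l: ccgccgcctctatcccggaa
A start at C that led a run of at least 5 pyrimidines was annotated for 13 of the 64 (20.3%), against 3.01% of the 27025 genes in the promoter table. This count needs the tract to begin at the annotated base, so a run that began beside it, as in Rpl18, was left out. A run of at least 8 pyrimidines touched the 20 bases on either side of the start in 33 of the 64 (51.6%), against 23.7% of all.

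In TPM as deposited, the level of Rpl41 fell the most among the matched genes and that of Rps27l differed least between the groups. The 3 promoters printed next belong to the muscle paralog Rpl3l, to Rpl41 and to Rps27l, in that order. Each is the 250 bases before the start, on the gene's strand and in build GRCm38.p6, at chr17:24727576-24727825 (plus strand), chr10:128549169-128549418 (minus strand) and chr9:66945836-66946085 (plus strand). Capitals mark CCGGAAG, the core that ETS factors bind, and CANNTG, the E-box that MyoD and Myc families bind, on either strand.
Rpl3l: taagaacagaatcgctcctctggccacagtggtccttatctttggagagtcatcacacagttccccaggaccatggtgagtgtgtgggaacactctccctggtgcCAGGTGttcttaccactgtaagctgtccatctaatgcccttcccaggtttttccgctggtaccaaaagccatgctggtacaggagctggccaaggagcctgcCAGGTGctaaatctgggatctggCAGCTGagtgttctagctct
Rpl41: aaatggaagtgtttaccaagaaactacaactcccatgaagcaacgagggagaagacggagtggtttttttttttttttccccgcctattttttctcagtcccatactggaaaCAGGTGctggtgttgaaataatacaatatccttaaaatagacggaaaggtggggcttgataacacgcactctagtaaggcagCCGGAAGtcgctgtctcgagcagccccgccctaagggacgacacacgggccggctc
Rps27l: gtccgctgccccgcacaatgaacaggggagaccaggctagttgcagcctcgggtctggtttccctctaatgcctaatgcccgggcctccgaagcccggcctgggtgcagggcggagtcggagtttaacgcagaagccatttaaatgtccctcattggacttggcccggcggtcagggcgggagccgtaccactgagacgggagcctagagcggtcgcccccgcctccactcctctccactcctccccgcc
In Rpl3l there were 3 CANNTG matches, which began 145, 43 and 20 bases before the start, and no CCGGAAG. In Rpl41 CCGGAAG began 56 and CANNTG 138 bases before the start. Neither motif was found in this stretch of Rps27l, whose CCGGAAG match lay in the 50 bases after the start. Over the full promoters of 300 bases (the 250 before each start and the 50 after it, both strands), CCGGAAG was found in 26 of the 64 genes (40.6%), in 9.93% of all genes and in 20.3% of the tested genes. CANNTG was found in 50% of the 64 and in 75% of all, and the MEF2 motif in 1.56% and 3.70%. That 1.56% was 1 gene, Rpl3l. Its match lay in the promoter of another annotated start (chr17:24732435-24732734, plus strand), not in the stretch printed above. A match of letters is no measured binding site. The medians of the log2 fold changes described below were -0.44 for the 25 tested genes with CCGGAAG and -0.45 for the 37 without, and -0.40 for the 13 with the start tract and -0.47 for the 49 without.

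Ribosomal protein mRNAs took 1.60%, 1.47% and 1.94% of all TPM in LrpprcWT replicates 1, 2 and 3. In LrpprcP27A they took 1.27%, 1.25% and 1.23%. The 2 groups did not overlap, and the mean was 1.67% ± 0.239 (SD, n = 3) in LrpprcWT and 1.25% ± 0.0204 (SD, n = 3) in LrpprcP27A. LrpprcWT replicate 3 held the highest value of all 6 libraries in each of the 82 genes, and LrpprcWT replicate 2 the lowest of its group in 73. The median coefficient of variation over the 82 genes was 15.3% in LrpprcWT and 2.87% in LrpprcP27A.

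**Figure D1:**
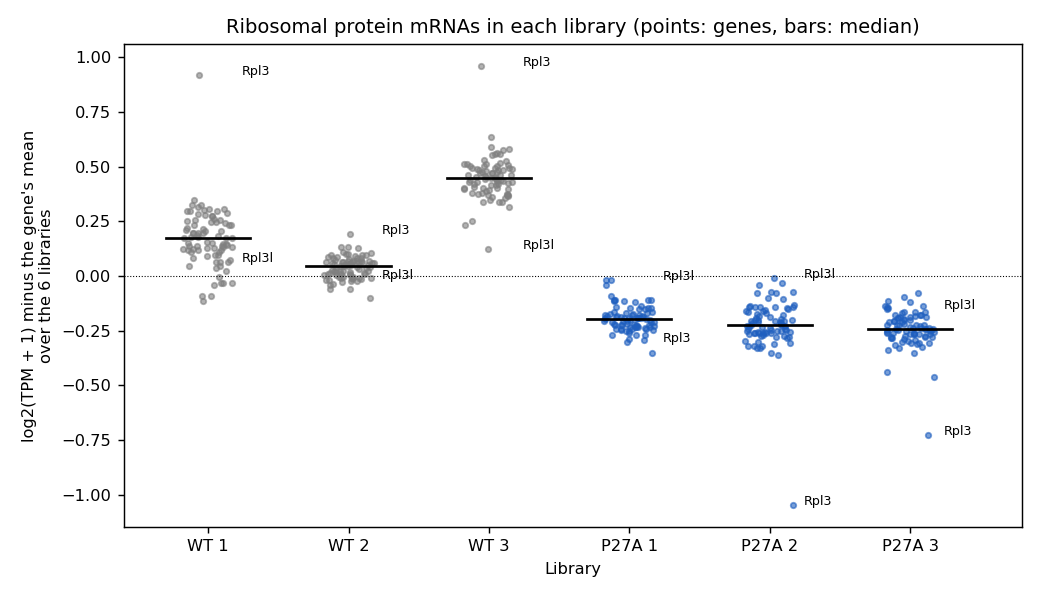
Level of each of the 82 tested ribosomal protein genes in each library (y axis: log2(TPM + 1) minus the gene's mean over the 6 libraries; x axis: library; grey points LrpprcWT, blue points LrpprcP27A; bars: median over genes). The genes of a library lie close together, LrpprcWT replicate 3 is the highest, and Rpl3 lies outside the range of the other genes in every library but LrpprcP27A replicate 1.

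Other values differed between the libraries as well. The mitochondrial genome gave 40.8%, 45.2% and 36% of TPM in LrpprcWT and 46.1%, 44.2% and 45.1% in LrpprcP27A, so that the groups overlapped. Its part in the results was not tested. Lrpprc itself was at 35.1, 37.0 and 75.2 TPM in LrpprcWT and at 26.9, 29.7 and 26.0 TPM in LrpprcP27A, with LrpprcWT replicate 3 again apart. Both plasmids carried mouse Lrpprc, so these values do not separate plasmid mRNA from that of the muscle's own gene. By qRT-PCR, the paper reported similar Lrpprc mRNA with both plasmids. The difference in Lrpprc missed the threshold (log2 fold change -0.72 ± 0.26 SE, limma adjusted p = 0.0652). Since TPM is a share, a median-of-ratios scaling, which sets the typical gene to no change, and 2 others were also run.

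On the deposited scale, 54 of the 82 ribosomal protein genes were lower in LrpprcP27A (limma on log2(TPM + 1), adjusted p under 0.05) and 0 were higher. At an unadjusted p under 0.05 in limma, 72 were lower and 0 higher, against 44.2% and 2.59% of all genes. The Kruskal-Wallis test called no gene of the whole table after adjustment, so its counts say nothing about these genes. Over all 11611 tested genes, 23.3% were lower and 1.34% higher. All 82 log2 fold changes were below 0, as were 88.0% of all genes. The median of the ribosomal protein genes was -0.42 and that of all genes -0.32, a gap of 0.10 on the log2 scale, and 71 of the 82 lay below the median of all genes. Their spread was narrow: the 10th to 90th percentile ran from -0.56 to -0.29, against -0.80 to 0.04 for all genes. In 79 of the 82, every LrpprcP27A library lay below every LrpprcWT library, which held for 47.6% of all genes. The opposite order held for 0 of the 82 and 3.51% of all genes, and Rpl3l, Rps20 and Rps27l were the other 3. In the large subunit 32 of 50 were lower with a median of -0.42, and in the small subunit 22 of 32 with a median of -0.43.

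**Figure D2:**
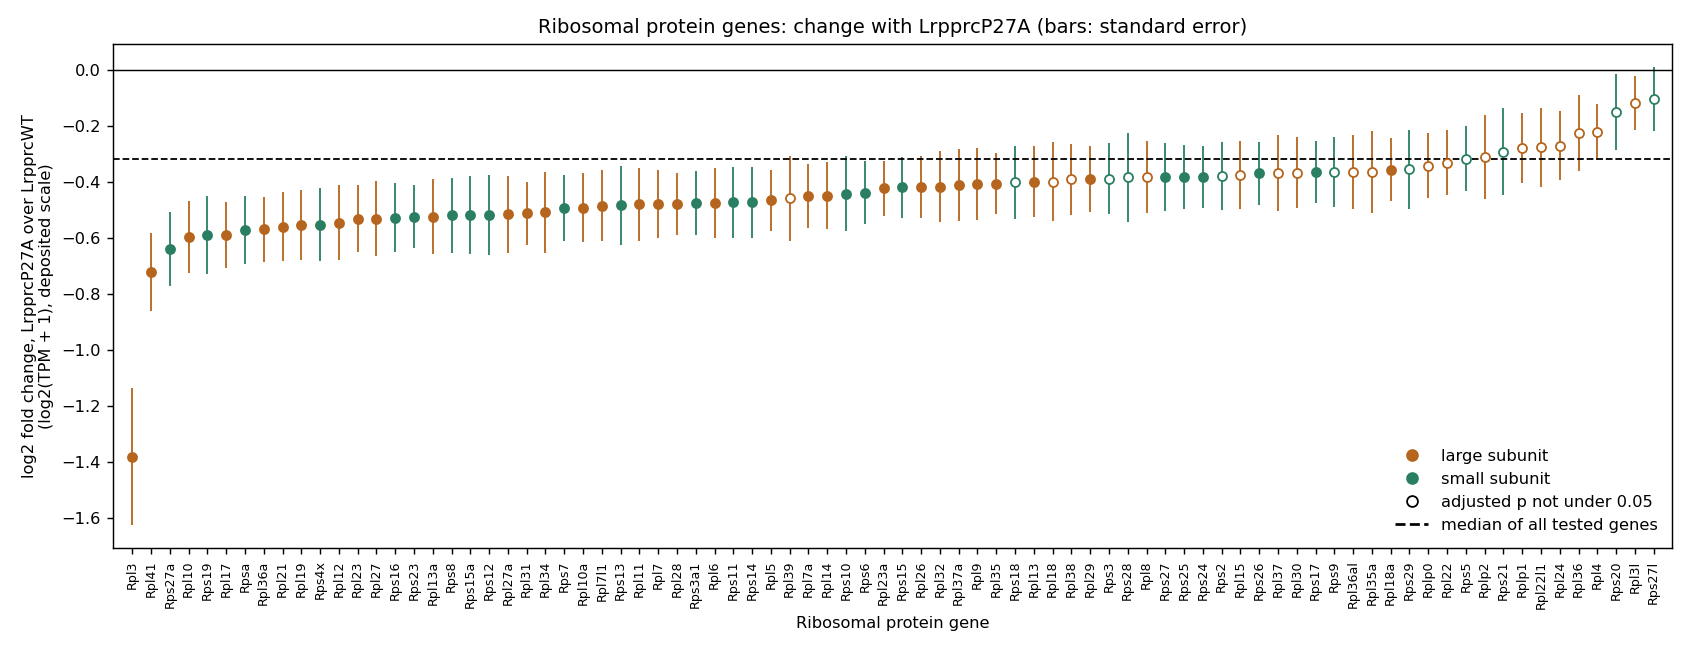
Log2 fold change of LrpprcP27A over LrpprcWT for each tested ribosomal protein gene, in order (y axis: difference in mean log2(TPM + 1); bars: standard error, n = 3 per group; filled points: limma adjusted p under 0.05). Rpl3 lies at -1.38, far below the next gene, Rpl41, at -0.72, and Rps27l, Rpl3l and Rps20 lie nearest to 0.

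With the pairs as a block, 73 of the 82 were lower and 0 higher, against 48.4% and 2.69% of all genes. The median difference within the pairs was -0.36, -0.25 and -0.68 in replicates 1, 2 and 3, and that of all tested genes was -0.39, -0.16 and -0.40. The ribosomal protein genes therefore lay below all genes in pairs 2 and 3 and not in pair 1. Under median-of-ratios scaling 1 of the 82, Rpl3, was lower and 0 were higher (6.03% and 5.25% of all genes, with 7 and 2 of the 82 at an unadjusted p under 0.05 in limma, where 17.4% and 16.4% of all genes passed). With the block as well, the 1 lower gene stood against 15.8% of all genes. Of the 82, 60 were then below 0, as were 50.8% of all genes, with a median of -0.05 against -0.00472 for all genes. After rescaling without mitochondrial and rRNA genes 11 were lower and 0 higher (5.50% and 1.70% of all genes), and after quantile normalization 9 were lower and 0 higher (4.46% and 4.25%). At an unadjusted p under 0.05 in limma, 56 and 43 of the 82 were lower in these fits and 0 higher. Of all genes, 26.8% and 14.6% were then lower and 6.44% and 17.7% higher. The medians were -0.23 and -0.19, against -0.18 and 0.038 for all genes. On the deposited scale the count of lower genes also rested on single libraries. Without LrpprcWT replicate 1 or without LrpprcWT replicate 3 it was 0 (2.33% and 0.122% of all genes were lower). At an unadjusted p under 0.05 in limma, 74 and 69 were then lower, where 28.3% and 27.4% of all genes passed. The count after adjustment was 73 without LrpprcWT replicate 2 (59.5% of all genes). Without LrpprcP27A replicates 1, 2 or 3 it was 19, 3 and 1 (14.6%, 4.44% and 3.80% of all genes). Without LrpprcWT replicate 3 the median was -0.32, against -0.26 for all genes.

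**Figure D3:**
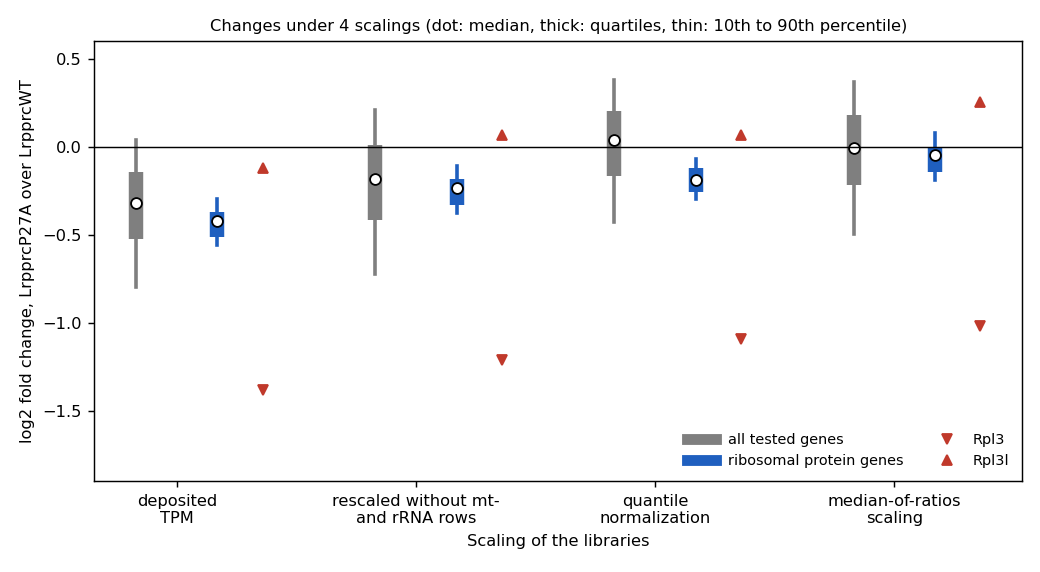
Log2 fold changes of all tested genes (grey) and of the ribosomal protein genes (blue) under 4 scalings of the libraries (y axis: log2 fold change, LrpprcP27A over LrpprcWT; dot: median, thick bar: quartiles, thin bar: 10th to 90th percentile; triangles: Rpl3 and Rpl3l). The ribosomal protein genes keep a narrow spread, their median moves from -0.42 to -0.05, and Rpl3 stays near or below -1.

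Rpl3 stood apart from the rest. The gene, which encodes a core protein of the large subunit, lies at chr15:79961825-79976069 (minus strand, 10 exons, GRCm39). It was at 73.2, 43.8 and 75.3 TPM in LrpprcWT and at 30.9, 18 and 22.7 TPM in LrpprcP27A, and every LrpprcP27A library was below every LrpprcWT library. The level in LrpprcP27A was 37.2% of that in LrpprcWT, with a log2 fold change of -1.38 ± 0.24 (SE, limma adjusted p = 0.0158). The log2 difference within the pairs was -1.22, -1.24 and -1.69, the lowest of the 82 genes in each pair. Rpl3 was lower under the other scalings too, with a log2 fold change of -1.02 and an adjusted p of 0.0311 in limma after median-of-ratios scaling, and it had the lowest log2 fold change of the 82 genes in every alternative fit. The call was lost without LrpprcWT replicate 1 (limma adjusted p = 0.0508) and without LrpprcWT replicate 3 (limma adjusted p = 0.0950), where the log2 fold change was -1.27 and -1.25, and also when no low genes were filtered out (log2 fold change still -1.38, limma adjusted p = 0.0618). With the Kruskal-Wallis test, in which no gene passed, the adjusted p was 0.0969. Relative to the median of the other ribosomal protein genes, the log2 level of Rpl3 was -1.35 ± 0.303 (SD, n = 3) in LrpprcWT and -2.32 ± 0.369 in LrpprcP27A.

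Rpl3l, at chr17:24946751-24955119 (plus strand, 10 exons, GRCm39), was at 468, 443 and 488 TPM in LrpprcWT and at 442, 444 and 403 TPM in LrpprcP27A. It was the fifth of the 82 genes by mean level, whereas Rpl3 was number 78. The groups overlapped, and the log2 fold change of -0.12 ± 0.10 (SE, limma adjusted p = 0.329) turned to 0.26 after median-of-ratios scaling (limma adjusted p = 0.147) and to 0.07 under both of the other scalings. The sum of the 2 mRNAs was 530.3 ± 39.0 TPM (SD, n = 3) in LrpprcWT and 453 ± 24.4 TPM in LrpprcP27A. The share of Rpl3 in that sum was 13.5%, 8.99% and 13.4% in LrpprcWT and 6.53%, 3.90% and 5.33% in LrpprcP27A.

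The TPM ratio of Rpl3l to Rpl3 within a library stays the same when all genes of that library are multiplied by the same factor. Quantile normalization is not a scaling of that kind. In TPM as deposited, the ratio was 6.39, 10.1 and 6.47 in LrpprcWT and 14.3, 24.7 and 17.7 in LrpprcP27A. The groups did not overlap, and the ratio was higher in LrpprcP27A in 3 of 3 pairs. The mean log2 ratio differed by 1.26 (p = 0.1 by a two-sided exact permutation test, the lowest possible with 3 against 3, and 0.167 after adjustment over 5 pairs of paralogs). Leaving out each library in turn gave differences from 1.06 to 1.48. The coding sequences of Rpl3l and Rpl3 were 73.2% identical and their transcripts shared no run longer than 22 bases, so that no whole read of 100 bases matched both exactly.

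**Figure D4:**
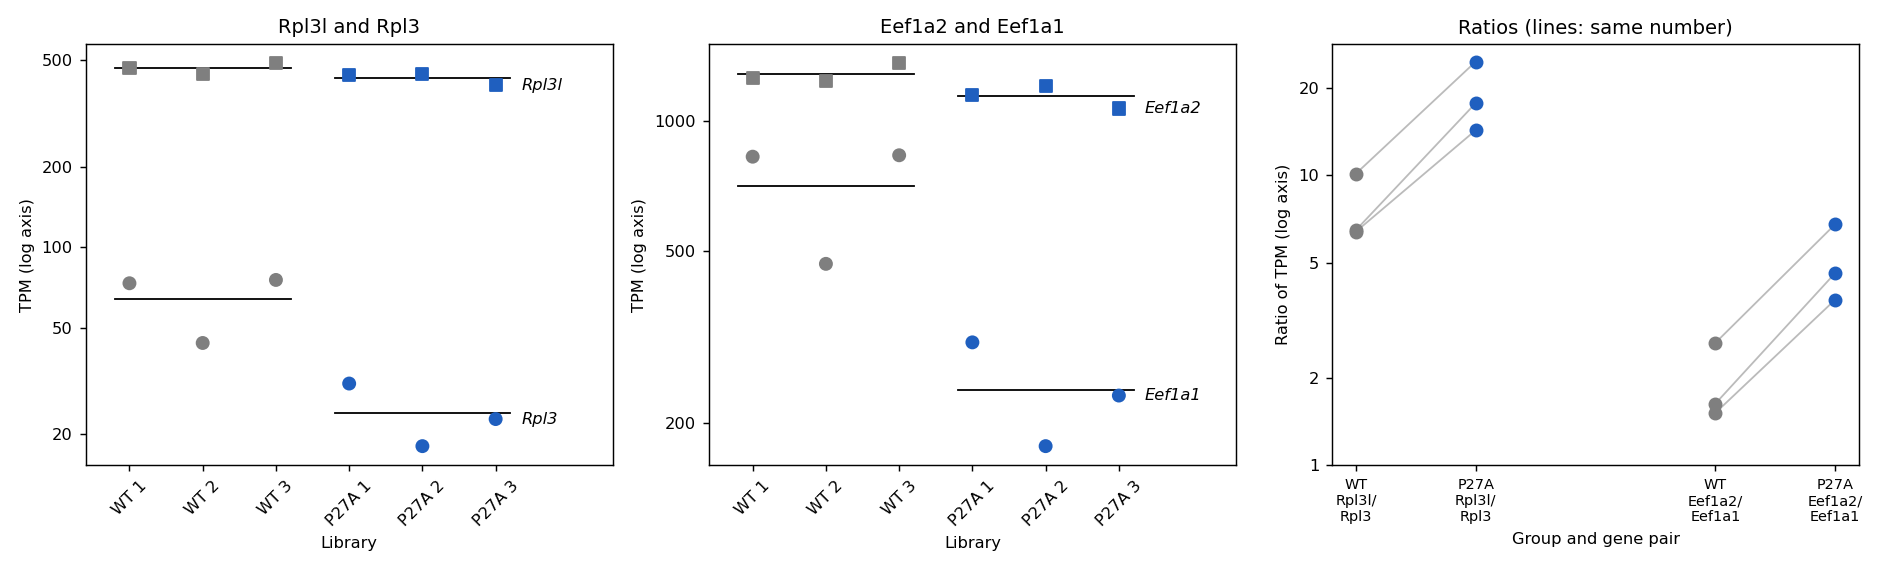
Levels of Rpl3 and Rpl3l (left) and of Eef1a1 and Eef1a2 (middle) in each library, and the ratio of each pair within a library (right; lines join libraries with the same replicate number; bars: group mean; log axes, grey LrpprcWT, blue LrpprcP27A). Circles (Rpl3 and Eef1a1) fall between the groups, squares (Rpl3l and Eef1a2) differ little, and all ratios of LrpprcP27A are above those of LrpprcWT.

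Like Rpl3, the markers of some other cells were lower in LrpprcP27A, but not those of all. In a bulk muscle, fewer cells of a type and less RNA per cell cannot be told apart. Fibroblast markers (7 of 7 tested lower, 8 listed, none at 0 in all libraries) summed to between 1007 and 1675 TPM in LrpprcWT and between 269 and 592 TPM in LrpprcP27A. Satellite cell and regenerating fibre markers such as Myod1 and Myh3 (7 of 8 lower, none at 0 in all libraries) summed to 161, 92.0 and 179 TPM in LrpprcWT and to 46.8, 28.1 and 37.6 TPM in LrpprcP27A. Macrophage markers (11 of 11 tested lower, 12 listed, none at 0 in all libraries) summed to between 338 and 682 TPM and between 113 and 232 TPM. Endothelial markers (2 of 7 lower, 28.6%, against 23.3% of all tested genes) summed to between 173 and 309.6 TPM in LrpprcWT and between 131 and 179 TPM in LrpprcP27A. The groups overlapped in this list. After median-of-ratios scaling, 5 fibroblast, 6 satellite cell, 4 macrophage and 0 endothelial markers were lower, against 6.03% of all genes. For Rpl3 and for these 4 lists, replicate 2 was the lowest of each group. The median-of-ratios factor of the library, which follows the typical gene, was also lowest in replicate 2 of each group (0.974 in LrpprcWT and 0.851 in LrpprcP27A). In replicates 1 and 3 the factor was 1.23 and 1.25 in LrpprcWT and 0.897 and 0.899 in LrpprcP27A. Neutrophil markers (0 of 3 tested lower, 5 listed) summed to 42.5, 53.2 and 32.1 TPM in LrpprcWT and to 38.2, 24.2 and 26.2 TPM in LrpprcP27A, and Schwann cell and adipocyte markers (0 of 4 tested lower, 7 listed) to 41.0, 57.2 and 25 TPM and to 60.9, 29.8 and 31.5 TPM. In both of these lists LrpprcWT replicate 2 was the highest of its group, unlike for Rpl3, and the groups overlapped. Lymphocyte markers (1 of 3 tested lower, 9 listed) summed to at most 7.61 TPM. The part of these cells in the level of Rpl3 was not tested.

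Other paralogs showed smaller shifts against their partners. Rps27l, which p53 induces, was at 81.3, 80.2 and 99.6 TPM in LrpprcWT and at 81.1, 81.6 and 79.1 TPM in LrpprcP27A, so that the groups overlapped (log2 fold change -0.10 ± 0.11 SE, limma adjusted p = 0.471, and 0.27 after median-of-ratios scaling, limma adjusted p = 0.119). Its partner Rps27 was at 187, 173 and 228 TPM in LrpprcWT and at 151, 146 and 151 TPM in LrpprcP27A (log2 fold change -0.38 ± 0.12 SE, limma adjusted p = 0.0487), and an annotated transcript of Rps27rt shares reads of 100 bases with it. The ratio of Rps27l to Rps27 was 0.435, 0.464 and 0.436 in LrpprcWT and 0.537, 0.559 and 0.525 in LrpprcP27A. These groups did not overlap, with a difference in log2 ratio of 0.28 (exact permutation p = 0.1).

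Rpl36al, a paralog of Rpl36a, was at 103, 106 and 137 TPM in LrpprcWT and at 86.9, 95.7 and 83.5 TPM in LrpprcP27A (log2 fold change -0.36 ± 0.13 SE, limma adjusted p = 0.0682, and 0.0262 with the replicate block). Rpl36a fell from 75.3, 69.2 and 87.8 TPM to 52.5, 50.3 and 52.0 TPM (log2 fold change -0.57 ± 0.12 SE, limma adjusted p = 0.0195). The log2 ratio of Rpl36al to Rpl36a was higher by 0.21 in LrpprcP27A (exact permutation p = 0.1), and no group overlapped the other. For Rpl22l1 and Rpl22, the difference in log2 ratio was 0.05 (exact permutation p = 0.7), and for Rpl7l1 and Rpl7 it was -0.0064 (exact permutation p = 0.9), with overlapping groups in both. Rpl22l1 was between 22.3 and 30.1 TPM in LrpprcWT and between 19.2 and 22.0 TPM in LrpprcP27A. Rpl7l1, the gene with the lowest mean level of the 82, was between 18.1 and 23.1 TPM in LrpprcWT and between 14.3 and 15 TPM in LrpprcP27A (limma adjusted p = 0.0315). Rpl39, a short protein of the exit tunnel whose paralog Rpl39l was not tested, was at 84.1, 76.7 and 116 TPM in LrpprcWT and at 65.1, 67.0 and 65.1 TPM in LrpprcP27A (log2 fold change -0.46 ± 0.15 SE, limma adjusted p = 0.0547, and 0.00834 with the replicate block).

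After Rpl3, the lowest log2 fold changes were those of Rpl41, Rps27a, Rpl10 and Rps19. Rpl41, which encodes the smallest protein of the large subunit, was at 331, 278 and 404 TPM in LrpprcWT and at 212, 204 and 192 TPM in LrpprcP27A (log2 fold change -0.72 ± 0.14 SE, limma adjusted p = 0.0174, and -0.35 after median-of-ratios scaling, limma adjusted p = 0.0639). Rps27a, made as a fusion with ubiquitin, was at 148, 133 and 186 TPM in LrpprcWT and at 96.7, 101 and 98.1 TPM in LrpprcP27A (log2 fold change -0.64 ± 0.13 SE, limma adjusted p = 0.0204). The groups did not overlap in either gene. Rps19, a small subunit protein known for its mutations in Diamond-Blackfan anaemia, fell from 34.8, 28.4 and 39.8 TPM to 23.4, 21.2 and 22.1 TPM (log2 fold change -0.59 ± 0.14 SE, limma adjusted p = 0.0259). Rpl10, a late-joining protein of the large subunit, was at 75.7 ± 8.68 TPM (SD, n = 3) and 49.7 ± 5.26 TPM (log2 fold change -0.60 ± 0.13 SE, limma adjusted p = 0.0220), but its reads can be shared with Rpl10-ps3, which held 352 to 491 TPM in LrpprcWT and 309 to 336 TPM in LrpprcP27A. Summed with that pseudogene, Rpl10 had a log2 fold change of -0.41 ± 0.12 (SE, limma adjusted p = 0.0454).

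At the other end, Rps20 of the small subunit was at 59.1, 56.3 and 77.6 TPM in LrpprcWT and at 59.7, 57.4 and 54.9 TPM in LrpprcP27A, and only LrpprcWT replicate 3 lay above the rest (log2 fold change -0.15 ± 0.14 SE, limma adjusted p = 0.382, and 0.22 after median-of-ratios scaling). Rpl4, a core large subunit protein, was at 438 ± 37.2 TPM (SD, n = 3) and 374 ± 6.90 TPM (limma adjusted p = 0.112), and Rpl36 at 499 ± 97.2 TPM and 422 ± 2.01 TPM (limma adjusted p = 0.210). Rpl36 and Rpl4 were also among the genes of highest level, and the transcripts of Rpl36 overlap those of Lonp1.

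The stalk proteins, which recruit elongation factors to the ribosome, include the genes of highest level. Rplp1 was at 885, 868 and 1150.1 TPM in LrpprcWT and at 808, 789.6 and 777 TPM in LrpprcP27A. Its groups did not overlap, yet the difference missed the threshold (log2 fold change -0.28 ± 0.12 SE, limma adjusted p = 0.110). Rplp0 was at 613, 547 and 716 TPM and at 512, 474 and 485 TPM (log2 fold change -0.34 ± 0.12 SE, limma adjusted p = 0.0593, and 0.0251 with the replicate block), and Rplp2 at 148 ± 32.7 TPM (SD, n = 3) and 118 ± 2.39 TPM (limma adjusted p = 0.131, and 0.0487 with the replicate block). After median-of-ratios scaling all 3 stalk genes were slightly above 0, at 0.10, 0.03 and 0.06 for Rplp1, Rplp0 and Rplp2. Rpl23a, the third gene by mean level, was lower on the deposited scale, at 549 ± 48.6 TPM and 408 ± 6.59 TPM (limma adjusted p = 0.0259).

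Rps6, the small subunit protein that S6 kinase phosphorylates, was at 229, 207 and 265 TPM in LrpprcWT and at 170.5, 172 and 171 TPM in LrpprcP27A (log2 fold change -0.44 ± 0.11 SE, limma adjusted p = 0.0303). Rpsa, also known as the laminin receptor, was at 244, 205 and 273 TPM and at 166, 157 and 158 TPM (log2 fold change -0.57 ± 0.12 SE, limma adjusted p = 0.0212). In neither gene did the groups overlap. Rps6 and Rpsa stood at log2 fold changes of -0.07 and -0.20 under median-of-ratios scaling and missed the threshold.

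Fau and Rack1 are ribosomal proteins that carry other names. Of these, Fau was lower, at 198 ± 35.8 TPM (SD, n = 3) and 132 ± 7.40 TPM (log2 fold change -0.57 ± 0.14 SE, limma adjusted p = 0.0267). Rack1, a scaffold on the small subunit, missed the threshold (log2 fold change -0.36 ± 0.12 SE, limma adjusted p = 0.0581, and 0.0207 with the replicate block).

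Among the factors that work with the ribosome, the elongation factor pair Eef1a1 and Eef1a2 was set beside Rpl3 and Rpl3l after the values of those were seen. Eef1a2 replaces Eef1a1 in mature muscle fibres, and both deliver aminoacyl-tRNA. Eef1a1 was at 826, 467 and 833 TPM in LrpprcWT and at 308, 177 and 232 TPM in LrpprcP27A, with groups well apart (log2 fold change -1.55 ± 0.26 SE, limma adjusted p = 0.0139, and -1.18 after median-of-ratios scaling, limma adjusted p = 0.0281). Eef1a2 was at 1253, 1236 and 1359 TPM and at 1147, 1202 and 1068 TPM (limma adjusted p = 0.181). The ratio of Eef1a2 to Eef1a1 was 1.52, 2.64 and 1.63 in LrpprcWT and 3.73, 6.78 and 4.6 in LrpprcP27A, a difference in log2 ratio of 1.38 (exact permutation p = 0.1). Within each group the replicates kept the same order in Rpl3 and in Eef1a1. In LrpprcWT this was also the order of the median-of-ratios factors (1.23, 0.974 and 1.25 in replicates 1, 2 and 3). Of the 8 elongation factors tested, 3 were lower (37.5%, against 23.3% of all genes) and 0 higher, and Eef2, which moves the ribosome along, was at 696 ± 63.3 TPM (SD, n = 3) and 634 ± 24.2 TPM (limma adjusted p = 0.320).

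Other genes of the pathway were listed by function. Among 36 initiation factors 6 were lower (16.7%, against 23.3% of all genes) and 0 higher, and the median log2 fold change of -0.27 lay above the -0.32 of all genes. The lowest was Eif1a, a factor for start codon choice, with -0.81 ± 0.24 (SE, limma adjusted p = 0.0428). With median-of-ratios scaling 0 were lower and 6 higher (16.7%, against 5.25% of all genes). Of 12 other TOP mRNAs and hosts of small nucleolar RNAs, 5 were lower (41.7%, median -0.43), led by Vim, a filament gene of fibroblasts and other mesenchymal cells, with -1.45 ± 0.36 (SE, limma adjusted p = 0.0286). Of 86 ribosome biogenesis genes 6 were lower (6.98%, against 23.3% of all genes) and 0 higher, with a median of -0.24. The lowest was Sbds, which readies the large subunit for joining, with -0.64 ± 0.17 (SE, limma adjusted p = 0.0317). The same comparison gave 0 lower and 3 higher (3.49%) after median-of-ratios scaling.

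Of 23 tested genes of mTORC1 and its regulators of ribosomal protein mRNAs, 4 were lower (17.4%, against 23.3% of all genes). In this list 1 gene was higher, against 1.34% of all genes. The median was -0.16, against -0.32 for all genes. After median-of-ratios scaling 1 was lower (6.03% of all genes) and 5 were higher (21.7%, against 5.25% of all genes). Myc, a transcription factor that drives ribosome production, was at 13.4, 6.70 and 18.8 TPM in LrpprcWT and at 3.79, 2.27 and 2.84 TPM in LrpprcP27A (log2 fold change -1.73 ± 0.31 SE, limma adjusted p = 0.0160, and -1.41 after median-of-ratios scaling, limma adjusted p = 0.0286). Its order over the replicates of each group was that of Rpl3. In LrpprcWT, the median-of-ratios factors of the libraries had this order too. Eif4ebp2, which blocks cap-dependent initiation when mTORC1 is off, rose from 68.6, 70.0 and 69.8 TPM to 80.6, 92.7 and 102 TPM (log2 fold change 0.39 ± 0.11 SE, limma adjusted p = 0.0407, and 0.76 after median-of-ratios scaling).

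**Figure D5:**
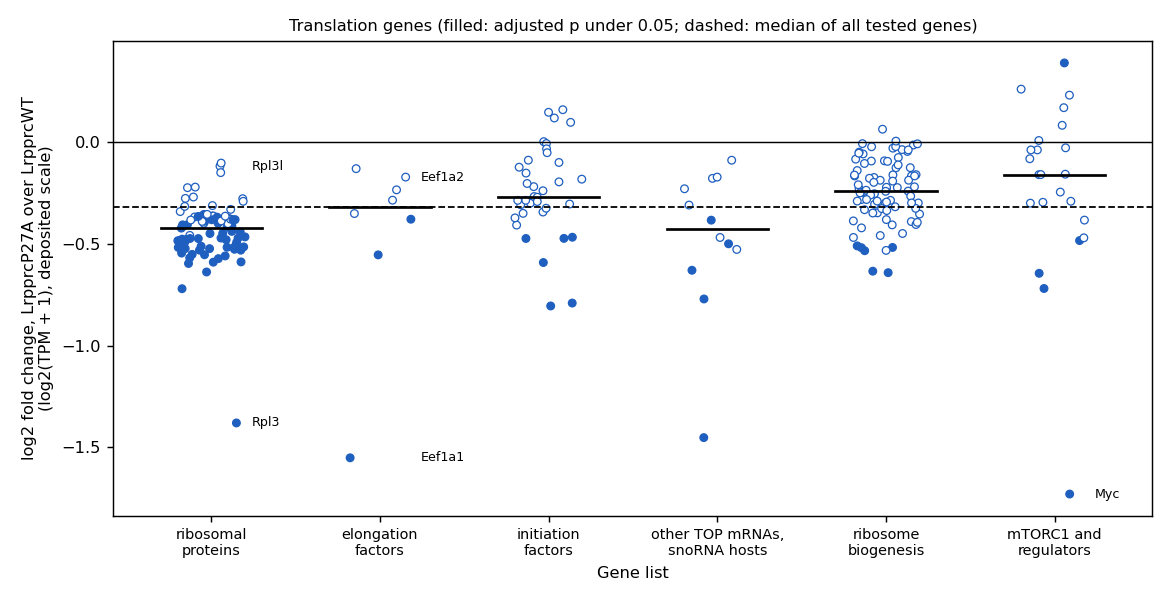
Log2 fold change of the tested genes of each translation list (y axis: LrpprcP27A over LrpprcWT, difference in mean log2(TPM + 1); x axis: list; filled points: limma adjusted p under 0.05; bars: median of the list; dashed line: median of all tested genes, -0.32). Rpl3, Eef1a1 and Myc lie far below the rest of their lists, and the medians of the biogenesis and mTORC1 lists lie above the dashed line.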

How the data were processed

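RNA-seq was done on 6 electroporated TA muscles, from TRIzol RNA, TruSeq RNA v2 libraries and reads of 100 bases. After quality trimming, CLC Genomics Workbench served for alignment (GRCm39) and for the TPM per gene that the authors deposited, which keep no depth, so that no counting error can be given. The gene annotation is not given in the sources used here.

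From these, log2(TPM + 1) was compared with limma 3.58.1 (R 4.3.3; trend, no block) over the 11611 genes with a mean of at least 1 TPM, with Benjamini-Hochberg adjustment over all of them. This stands in for the Kruskal-Wallis test of the study. Fold changes on this scale understate those of low genes. Single ratios were compared by exact permutation over libraries. The fit was also run on simulated data with known changes in both directions. No whole library was shifted there, so that run does not probe the scaling. Pairing comes from the contralateral muscles and the shared library numbers. After the group means were subtracted, same-numbered libraries had correlations of 0.363, 0.528 and 0.356 over all tested genes and of 0.45, 0.584 and -0.118 over the ribosomal protein genes. Alternatives were another pseudocount, other filters, no trend, Kruskal-Wallis, the block, 3 other scalings and each library left out.

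The genes described and the other lists were chosen with earlier results of these data known. The named genes are the paralogs and their partners, the 5 highest by level, the 5 lowest and highest by fold change, the stalk proteins, Rpsa, Rps6 and Rps27a, any that passed the test against the others, 5 fixed genes that are no members (Fau, Rack1, Eef1a1, Eef1a2 and Eef2), and the largest change each way in every other list. GENCODE (GRCm39) gave the gene positions and RefSeq the promoters. A gene fixed among these is not reported here.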

Additional observations from a re-analysis of the deposited data

How the results depend on the processing

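On the deposited scale the count of ribosomal protein genes that were lower (54 of 82) was 0 without a filter on low values, where 0.196% of all genes were lower, and 0 with the Kruskal-Wallis test, in which no gene of the table passed, and it ranged from 0 to 73 when single libraries were left out. It was 9 after quantile normalization, 11 after rescaling without mitochondrial and rRNA genes and 1 after median-of-ratios scaling, with or without the replicate block. The cause was not tested. None was higher in any of these fits. The median log2 fold change was -0.19, -0.23 and -0.047 under the same 3 scalings, against 0.038, -0.18 and -0.0047 for all genes. With single libraries left out it was -0.51 to -0.32. After quantile normalization 78 of the 82 lay below the median of all genes, and the gap between the medians was -0.23. The replicate block changed the count of lower genes to 2 of 2 ribosomal proteins named otherwise and 14 of 36 initiation factors. It was 8 of 12 for TOP mRNAs and 23 of 86 for ribosome biogenesis, where 48.4% of all genes were lower. With median-of-ratios scaling as well these counts were 0, 2, 3 and 1, with 1 of 8 elongation factors and 2 of 23 mTORC1 genes lower. In that fit 8 initiation factors, 12 biogenesis and 9 mTORC1 genes were higher. Of all genes, 15.8% were then lower and 13.4% higher. For the ratios, whose smallest p in a sign-flip test of 3 pairs is 0.25, the blocked difference between Rpl3l and Rpl3 was 1.26. Under median-of-ratios scaling alone the lower counts were 1 for elongation factors, 1 for mTORC1 genes and 0 for the other lists (6.03% of all genes). The higher counts were 6 for initiation, 3 for biogenesis and 5 for mTORC1 (5.25% of all genes). Quantile normalization gave 1 lower elongation factor and 1 lower mTORC1 gene and 0 in the other lists, with 1 initiation factor and 3 mTORC1 genes higher. The rescaling without mitochondrial and rRNA genes gave 0 lower in the named-otherwise, initiation, TOP and biogenesis lists. It also gave 1 lower mTORC1 gene and 2 higher initiation factors. Of all genes, 4.46% were lower and 4.25% higher after quantile normalization, and 5.50% and 1.70% after the rescaling. Most of the named genes that missed the threshold changed sign under a scaling, but Rpl39 did not. After median-of-ratios scaling, with or without the block, the values were 0.037 for Rpl22, 0.083 for Rpl22l1, 0.15 for Rpl36, 0.0083 for Rpl36al, 0.26 for Rpl3l, 0.15 for Rpl4, 0.033 for Rplp0, 0.10 for Rplp1, 0.060 for Rplp2, 0.22 for Rps20, 0.27 for Rps27l, 0.010 for Rack1, 0.20 for Eef1a2 and 0.24 for Eef2. After quantile normalization they were 0.045 for Rpl22l1, 0.067 for Rpl3l, 0.11 for Rps20, 0.17 for Rps27l, 0.051 for Eef1a2 and 0.022 for Eef2. After the rescaling they were 0.070 for Rpl3l, 0.036 for Rps20, 0.083 for Rps27l, 0.016 for Eef1a2 and 0.058 for Eef2. Leaving out single libraries moved the log2 ratio of Rpl22l1 to Rpl22 between -0.017 and 0.096, and that of Rpl7l1 to Rpl7 between -0.035 and 0.010. The differences for Rpl3l to Rpl3, Rps27l to Rps27 and Rpl36al to Rpl36a kept their sign with each library left out. TPM gives no depth, so the precision of a low value such as that of Rpl39l is unknown.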
